A study of Mus musculus with 3 samples.

Results

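The proteasome is the protease that breaks down most ubiquitin-tagged proteins of a cell, and its subunit genes were followed here in mouse epidermis with and without the caspase-8 inhibitor cFLIP and the cytokine TNF. A gene was taken as a member where its symbol began with Psma, Psmb, Psmc, Psmd or Psme and a number, apart from the 3 immunoproteasome genes Psmb8, Psmb9 and Psmb10. The rule found 40 of 24011 named genes and used no measured value. Of these, 38 encode subunits, activators or assembly chaperones of the proteasome, and 2, Psmc3ip and Psme3ip1, share the symbol but encode proteins named for binding a subunit. Psmb3 and Psmb5, which the rule would also cover, were not analysed here.

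RNA of epidermis was measured on 3 microarrays, 1 per genotype, with RNA pooled from 4 animals for each array as the labels state. TNF KO mice (TNF-/-) lacked TNF in all cells and kept cFLIP. cFLIP KO mice (cFLIP fl/fl-K14CreER tam) carried floxed cFLIP alleles and a Cre recombinase driven by the keratin 14 promoter, which tamoxifen activates in keratinocytes, and they kept TNF. cFLIP KO/TNF KO mice (TNF-/- cFLIP fl/fl-K14CreER tam) carried both changes. All 3 groups were epilated and given tamoxifen on the back skin, on 3 days as the labels state, and the study took the epidermis 72 h after the first application. The Cre transgene is not stated for TNF KO mice, and there was no array of wild-type epidermis, so loss of cFLIP, presence of Cre and presence of TNF cannot be told apart in cFLIP KO against TNF KO.

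With 1 array per genotype there was no replicate error. Without a test, "higher" and "lower" refer to these pools alone. Values are log2 signals after quantile normalization, which set a gene beside itself on another array and not beside another gene. Where 3 signals of a gene stand in a row, they follow the order TNF KO, then cFLIP KO, then cFLIP KO/TNF KO. Cflar, which encodes cFLIP, had a log2 signal of 7.002 on the TNF KO array, 6.29 on the cFLIP KO array and 6.53 on the cFLIP KO/TNF KO array, and Tnf had 5.11, 5.79 and 5.21. Both go the way the labels say, but no source used here says whether their probes lie in the deleted exons. The 8 keratinocyte markers (Krt5, Krt14, Krt1, Krt10, Trp63, Dsg3, Dsp and Col17a1) were well above the median of all values, 4.23, on every array. In pooled tissue, fewer cells of a type and less RNA per cell cannot be told apart.

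The proteasome consists of a barrel-shaped 20S core, in which outer rings of alpha subunits (Psma) gate the entry and inner rings of beta subunits (Psmb) carry the proteolytic sites, and of regulatory particles that cap it. The 19S particle binds ubiquitin chains, removes them and feeds the unfolded protein into the core with a ring of ATPases (Psmc) set among non-ATPase subunits (Psmd). The 11S and PA200 caps (Psme) open the core without ubiquitin. In skin as elsewhere the proteasome acts within TNF signalling, where it degrades the inhibitor that holds NF-kB in the cytoplasm.

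In cFLIP KO epidermis most proteasome genes had a lower signal than in TNF KO epidermis, and the 19S genes lay further below than the 20S genes. Of the 40 members, 32 were lower, 3 were higher (Psma5, Psmb11 and Psme2) and 5 had the same value on both arrays. Of all 24011 genes 7184 were lower, 11268 higher and 5559 equal, and of the 12983 genes not below 4.23 on every array 6519 were lower. Psma5 and Psmb11 were below 4.23 on every array. The median log2 signal of the members was 8.72 on the TNF KO array, 8.01 on the cFLIP KO array and 8.68 on the cFLIP KO/TNF KO array. The median log2 difference of cFLIP KO minus TNF KO was -0.62, with a range from -1.78 to 0.94. At least 2-fold lower were 9 members, Psmc5, Psmc6, Psmd1, Psmd8, Psmd11, Psmd12, Psmd5, Psme3 and Psme4, against 9.15% of all genes. No member was at least 2-fold higher, against 3.88% of all genes. At least 1.5-fold lower were 22 members, against 15.5% of all genes.

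In cFLIP KO/TNF KO epidermis the proteasome genes had nearly the TNF KO signal. The differences ran from -0.35 (Psmd1) to 0.21 (Psme1), and 30 of 40 were within 0.1 on the log2 scale. Exactly the same value on both arrays was held by 12 of the 40 members and by 12618 of all 24011 genes. No member passed 1.5-fold or 2-fold in either direction. Few of all genes did, with 250 at least 1.5-fold lower and 355 higher, and 0.225% at least 2-fold lower and 0.629% at least 2-fold higher. Accordingly, cFLIP KO minus cFLIP KO/TNF KO gave a median of -0.62 too, with 6 members at least 2-fold lower (Psmc6, Psmd8, Psmd11, Psmd5, Psme3 and Psme4), against 8.07% of all genes, and none at least 2-fold higher, against 3.32%. The 3 comparisons share their arrays, so these values are not independent of each other. Scaling by Actb moves every difference of cFLIP KO/TNF KO from TNF KO by -0.52, and the members' median was then -0.53 in that comparison and -0.061 in cFLIP KO minus cFLIP KO/TNF KO.

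**Figure D1:**
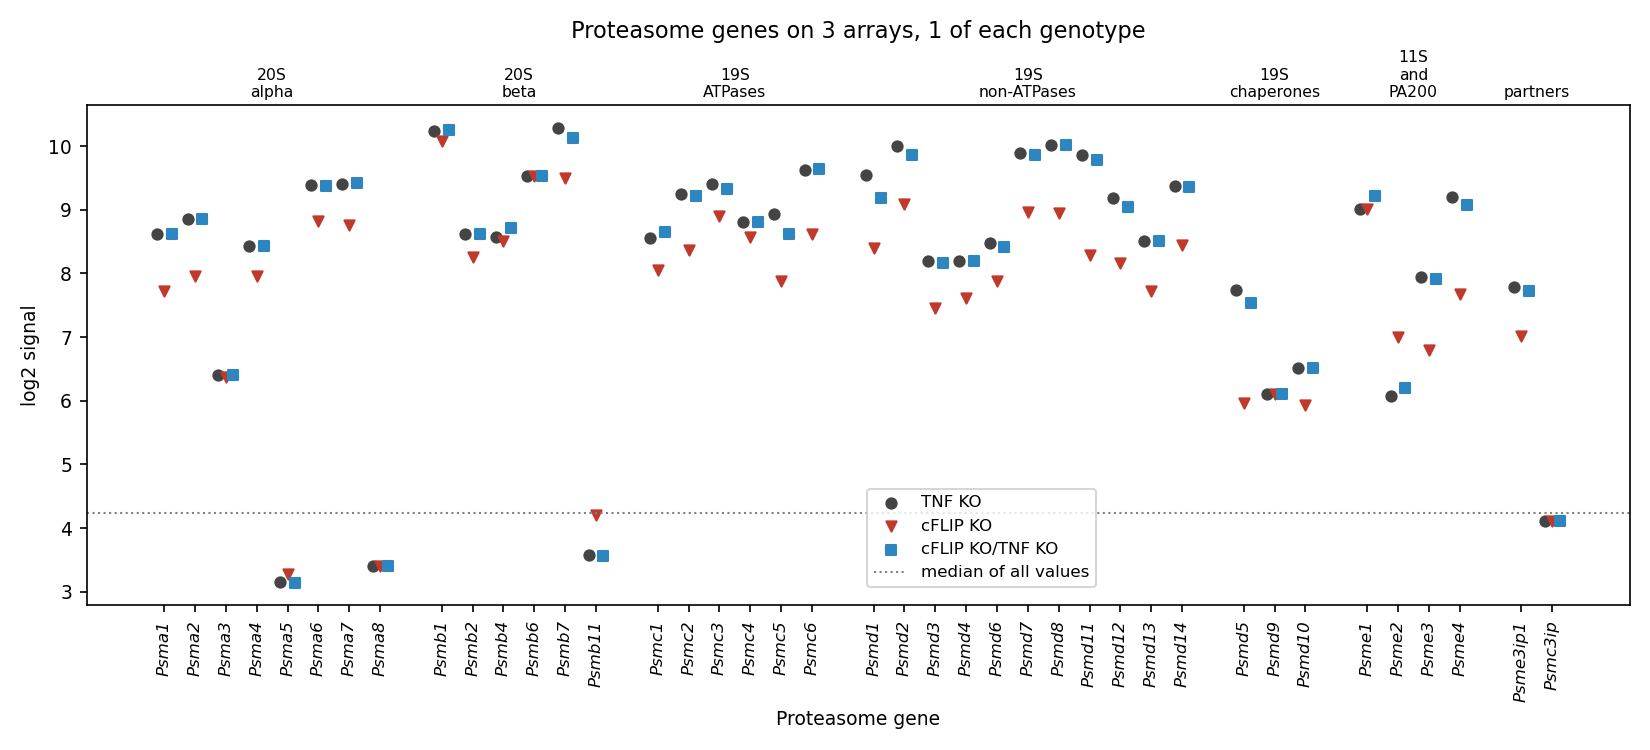
Log2 signal (vertical axis) of the 40 proteasome genes (horizontal axis, grouped by role) on the TNF KO (grey circles), cFLIP KO (red triangles) and cFLIP KO/TNF KO (blue squares) arrays. There is 1 array per genotype, so no error bar is drawn; the dotted line is the median of all values, 4.23. The red triangle is the lowest symbol for 32 of the 40 genes, and the 2 other symbols lie within 0.35 of each other for every gene.

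Proteasome genes are bright, and the cFLIP KO array gave lower values for bright genes in general. When all genes were ranked by mean signal and cut into 10 groups of equal size, 29 members fell into the brightest group, with a mean log2 signal of at least 7.67, and 32 into the 2 brightest. In that brightest group the median of all 2402 genes in cFLIP KO minus TNF KO was -0.79, and the median of its 29 members was -0.79 too. Of its genes 39.1% were at least 2-fold lower, whereas 7 of its 29 members were. In the second brightest group 30.8% of genes and 2 of 3 members were at least 2-fold lower. Among the 12983 genes not below 4.23 on every array, 16.9% were at least 2-fold lower, and all 9 lower members were among the 36 members that met this limit. The log2 values also spread less on the cFLIP KO array, with an SD over genes of 1.77 against 2.06 in TNF KO and 2.04 in cFLIP KO/TNF KO. The share of lower members was thus above that of all genes and, in the brightest group, below that of its genes, and the part of this shift in the members' values was not tested.

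After subtraction of a lowess trend fitted to the differences by signal, the members' median in cFLIP KO minus TNF KO became -0.14, with 23 of 40 below 0, against 13101 of all 24011 genes. Only Psmd5 was then at least 2-fold lower, against 4.95% of all genes, and only Psme2 was at least 2-fold higher, against 937 of all 24011 genes. The trend itself was between -0.77 and -0.17 at the signal of the members that were not dim.

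**Figure D2:**
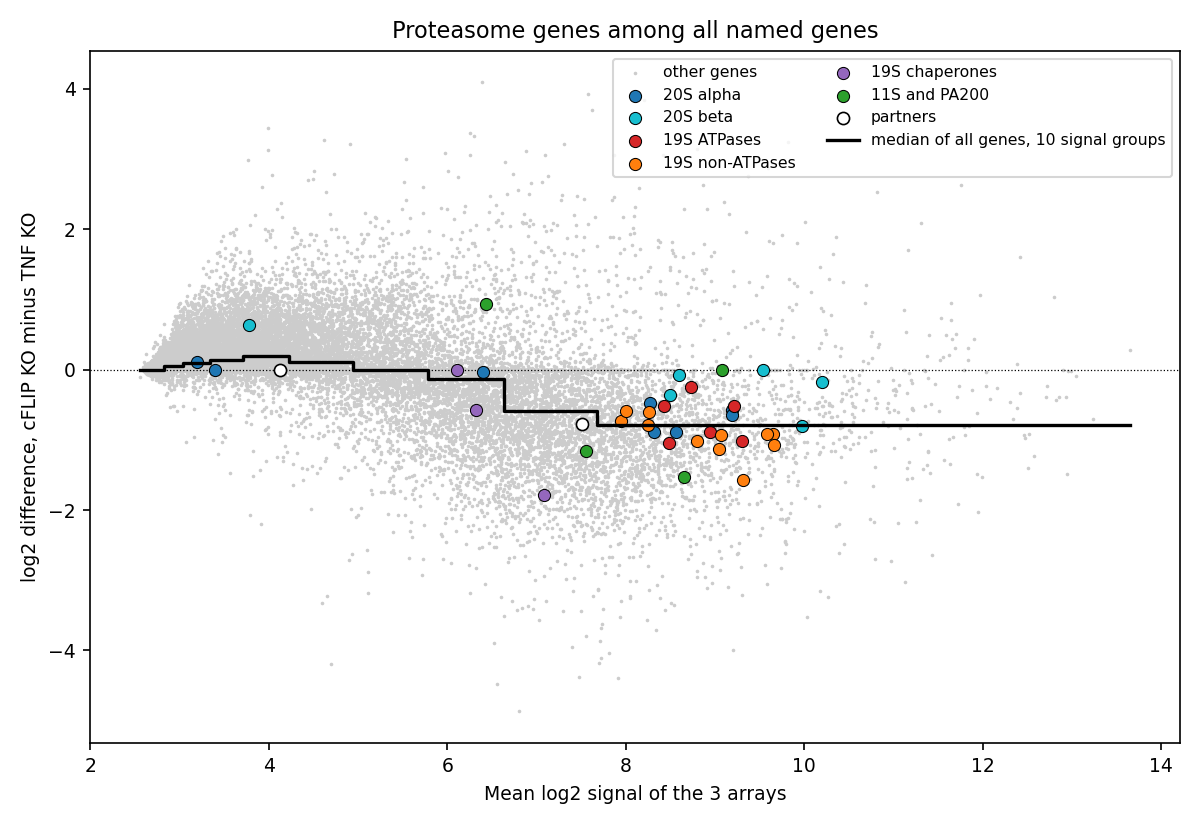
Log2 difference of cFLIP KO minus TNF KO (vertical axis) against the mean log2 signal of the 3 arrays (horizontal axis) for all named genes (grey) and for the proteasome genes by role (coloured; white, the 2 partner genes). The black line is the median of all genes in each of 10 groups by signal and falls to -0.79 in the brightest group, where most 19S genes lie at or below it and most 20S genes above it.

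The order of the 2 particles in cFLIP KO kept its sign after the lowess trend, the repeated quantile normalization and the filter on dim genes, while its size did not. Between the alpha ring and the ATPases alone it was not kept. Their medians in cFLIP KO minus TNF KO were 0.024 and -0.006 after the trend. After the repeated normalization they were 0.013 and 0.024, in the reverse order. The 17 genes of the 19S particle had a median log2 difference of -0.92 (range -1.58 to -0.25) in cFLIP KO minus TNF KO, and all 17 had their lowest signal on the cFLIP KO array. The 14 measured genes of the 20S core had a median of -0.26 (range -0.89 to 0.64), and 10 of 14 had their lowest signal there. Of the 19S genes, 16 of 17 lay below the core's median, and no core gene lay below the median of the 19S genes. Of the 19S genes 6, and of the core genes none, were at least 2-fold lower, and 14 of 17 against 4 of 14 were at least 1.5-fold lower, where 15.5% of all genes were. All 17 19S genes lay in the brightest group, of whose genes 39.1% were at least 2-fold lower, and after the lowess trend no 19S gene was. With the dim core genes Psma5, Psma8 and Psmb11 left out, the core's median was -0.47, again with 16 of 17 19S genes below it and none of the 11 core genes below the 19S median.

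The gap between the median of the 19S genes and that of the 20S genes was -0.65 as deposited, -0.34 with the lowess trend subtracted, -0.40 with quantile normalization repeated and -0.45 without dim genes. Scaling by Actb or by 7 reference genes shifts every gene by the same amount and cannot change this gap. In cFLIP KO minus cFLIP KO/TNF KO the gap was -0.51 as deposited and from -0.26 to -0.32 after the trend, the repeated normalization and the filter on dim genes. In cFLIP KO/TNF KO minus TNF KO it was -0.03. The position of either particle against 0 did depend on the scaling. In cFLIP KO minus TNF KO the core's median was 0.060 by the reference genes, 0.17 with the lowess trend subtracted and 0.22 with the normalization repeated, whereas the 19S median stayed below 0, at -0.59, -0.17 and -0.19.

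**Figure D3:**
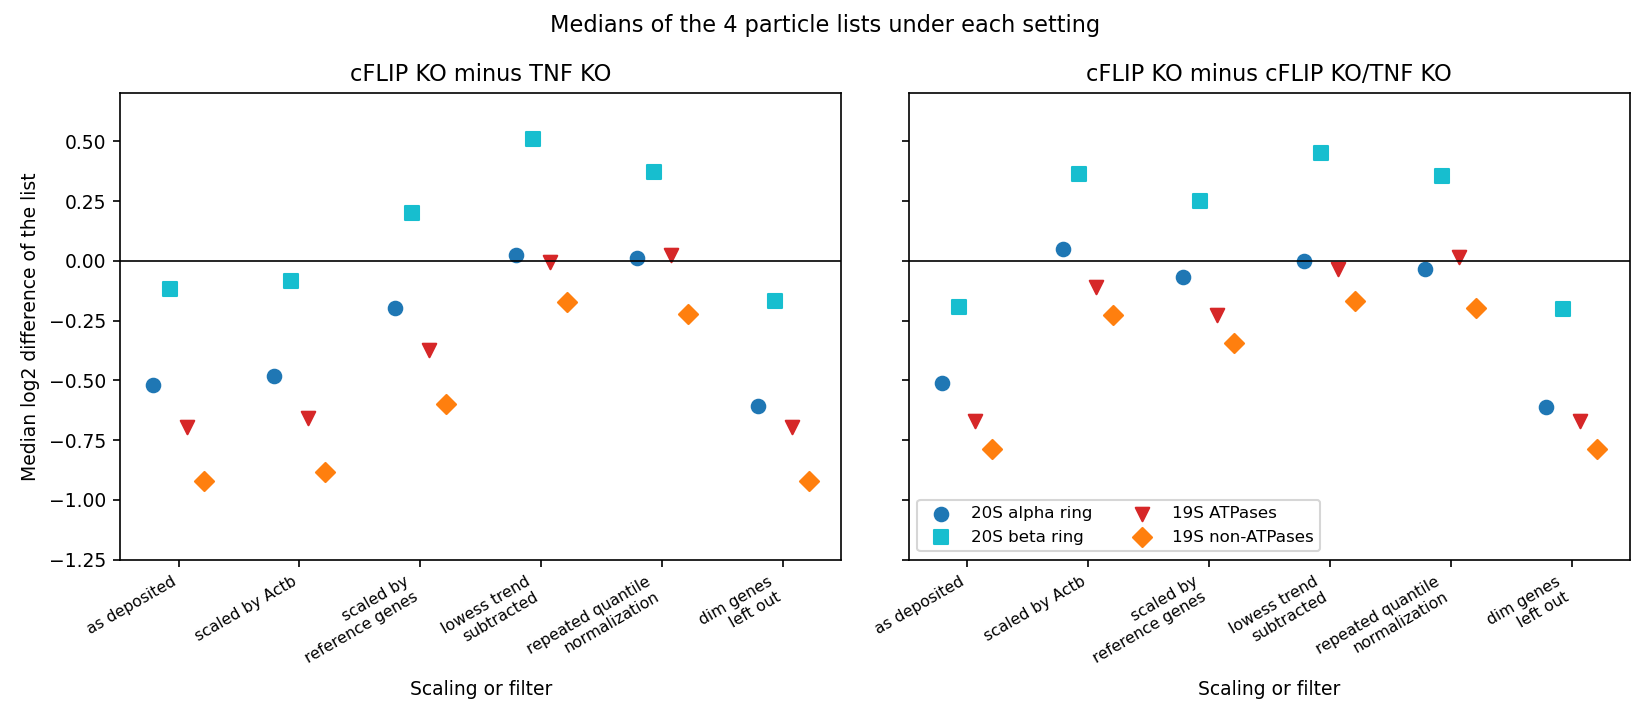
Median log2 difference (vertical axis) of the 8 alpha ring, 6 beta ring, 6 ATPase and 11 non-ATPase genes measured, under 6 scalings or filters (horizontal axis), for cFLIP KO minus TNF KO (left) and cFLIP KO minus cFLIP KO/TNF KO (right). The beta ring is the highest and the non-ATPases are the lowest of the 4 lists under every setting drawn, while the level of all 4 against 0 moves with the scaling.

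Within the core, the alpha ring was lower in cFLIP KO than the beta ring. The 8 alpha genes had a median log2 difference from TNF KO of -0.52 and the 6 measured beta genes one of -0.12. Psma2, an alpha subunit, had a log2 signal of 8.86 on the TNF KO array, 7.96 on the cFLIP KO array and 8.86 on the cFLIP KO/TNF KO array. Psma1, another alpha subunit, had 8.62, 7.73 and 8.62. These were the lowest of the core, each with a difference of -0.89 from TNF KO. Psma7 had 9.40, 8.75 and 9.42, Psma6 had 9.39, 8.82 and 9.38, and Psma4, whose yeast counterpart keeps the gate closed, had 8.43, 7.96 and 8.43. In each of these 5 genes the cFLIP KO array stood alone below the others. Psma3 had 6.41, 6.38 and 6.41 and so hardly differed. Psma5 had 3.16, 3.27 and 3.14 and Psma8, an alpha subunit of the testis, had 3.40 on every array. Both were below the median of all values on every array, and no difference is read from them.

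Of the beta genes, the trypsin-like subunit Psmb7 was lower in cFLIP KO as deposited and the caspase-like subunit Psmb6 was not. Psmb7 had a log2 signal of 10.29 on the TNF KO array, 9.49 on the cFLIP KO array and 10.13 on the cFLIP KO/TNF KO array, so cFLIP KO was 1.74-fold below TNF KO. Psmb6 had 9.54 on all 3 arrays. After the lowess trend the difference of cFLIP KO from TNF KO was -0.035 for Psmb7 and 0.75 for Psmb6. Psmb1, Psmb2 and Psmb4 are beta subunits without proteolytic activity. Psmb1 had 10.24, 10.07 and 10.26, Psmb2 had 8.62, 8.26 and 8.61, and Psmb4 had 8.58, 8.50 and 8.71. As deposited all 3 were lowest in cFLIP KO, by at most 0.36 on the log2 scale from TNF KO, but after the lowess trend these differences turned to 0.60, 0.33 and 0.62. Psmb11, a beta subunit of the thymus, had 3.57, 4.21 and 3.56, below the median of all values throughout. After the lowess trend the beta ring's median was 0.51 above TNF KO and the alpha ring's 0.02, so the difference between the rings kept its sign while the direction of each against TNF KO did not.

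In the 19S base, the 6 ATPases that unfold the substrate stood at a median of -0.70 in cFLIP KO minus TNF KO (-0.006 after the lowess trend) and of -0.01 in cFLIP KO/TNF KO minus TNF KO. Psmc5 had a log2 signal of 8.93 on the TNF KO array, 7.88 on the cFLIP KO array and 8.62 on the cFLIP KO/TNF KO array. It differed from TNF KO by -1.05 in cFLIP KO and by -0.31 in cFLIP KO/TNF KO, where only Psmd1 lay lower. Psmc6 had 9.63, 8.62 and 9.64, and Psmc2 had 9.25, 8.37 and 9.22, so that only the cFLIP KO array was low. Psmc1 and Psmc3, which help to open the gate of the core with their tails, had 8.56, 8.05 and 8.66, and 9.41, 8.90 and 9.32. Both differed by -0.51 between cFLIP KO and TNF KO. Psmc4 had 8.81, 8.57 and 8.81, the smallest step of the 17 genes of the particle at -0.25.

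The 11 non-ATPase genes stood at a median of -0.92 in cFLIP KO minus TNF KO (-0.17 after the lowess trend) and of -0.04 in cFLIP KO/TNF KO minus TNF KO. In the former 4 of 11 were past 2-fold lower, against 9.15% of all genes and 39.1% of the brightest group, and after the trend 0 were. Psmd11, a lid subunit that clamps the regulatory particle to the core, had a log2 signal of 9.86 on the TNF KO array, 8.28 on the cFLIP KO array and 9.78 on the cFLIP KO/TNF KO array. The cFLIP KO array was 2.98-fold below TNF KO and 2.82-fold below cFLIP KO/TNF KO, which made it the lowest gene of the particle. It remained so after the lowess trend, at -0.85. In human embryonic stem cells and in Caenorhabditis elegans a high level of this subunit is known to raise proteasome assembly.

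Psmd1, a large scaffold of the base, had a log2 signal of 9.54 on the TNF KO array, 8.41 on the cFLIP KO array and 9.19 on the cFLIP KO/TNF KO array, and its -0.35 in cFLIP KO/TNF KO minus TNF KO was the lowest of all members. Psmd2, the other large base subunit, on which shuttle factors dock, had 10.004, 9.08 and 9.86. The lid subunits Psmd8 and Psmd12 had 10.02, 8.95 and 10.02, and 9.19, 8.16 and 9.04. All 4 genes were lowest in cFLIP KO, and Psmd1, Psmd2 and Psmd12 also lay below TNF KO in cFLIP KO/TNF KO.

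The ubiquitin-handling subunits stayed short of 2-fold. Psmd14, the deubiquitinase of the lid, had a log2 signal of 9.38 on the TNF KO array, 8.45 on the cFLIP KO array and 9.35 on the cFLIP KO/TNF KO array. Psmd7, with which it forms a pair, had 9.89, 8.97 and 9.87. Psmd4, a ubiquitin receptor, had 8.20, 7.61 and 8.20. The deubiquitinase and its partner thus differed from TNF KO by -0.93 and -0.92 in cFLIP KO and the receptor by -0.59. The remaining lid subunits, Psmd3, Psmd6 and Psmd13, differed by -0.74, -0.60 and -0.79 in cFLIP KO, and by no more than 0.07 in size in cFLIP KO/TNF KO.

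The 3 chaperones of the 19S base that are named Psmd differed from each other. Psmd5 binds ATPases of the base during assembly, and its excess is known to hold back proteasome assembly. It had a log2 signal of 7.74 on the TNF KO array, 5.96 on the cFLIP KO array and 7.54 on the cFLIP KO/TNF KO array. The cFLIP KO array was 3.44-fold below TNF KO and 2.99-fold below cFLIP KO/TNF KO, the lowest of all 40 members in both comparisons and, against TNF KO, the only one past 3-fold. Psmd10, also known as gankyrin, had 6.51, 5.93 and 6.51. Psmd9 had 6.10 on all 3 arrays.

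**Figure D4:**
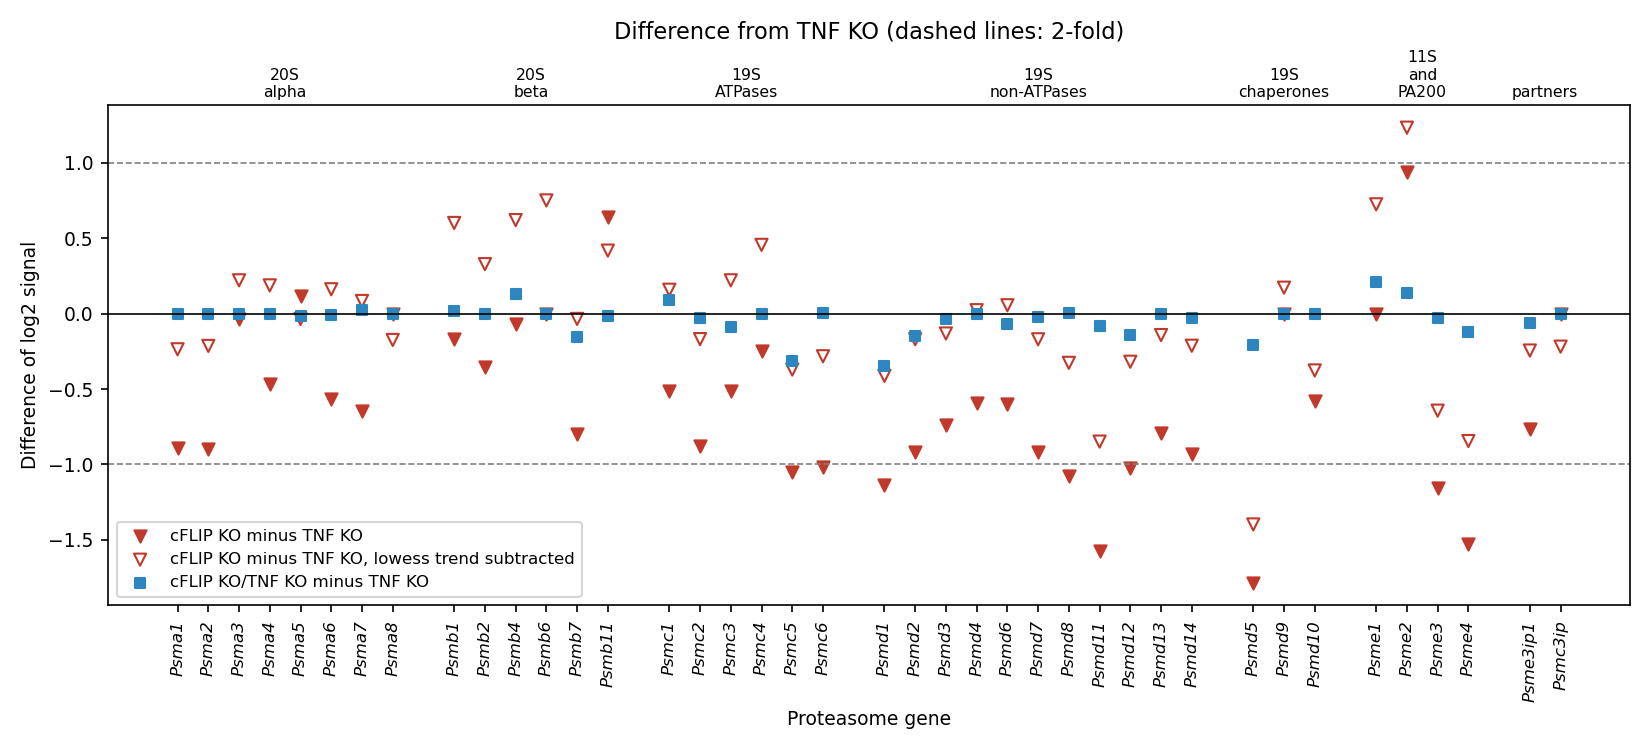
Log2 difference from TNF KO (vertical axis) of each proteasome gene (horizontal axis, grouped by role), for cFLIP KO (filled red triangles), for cFLIP KO after a lowess trend on the signal was subtracted (open red triangles) and for cFLIP KO/TNF KO (blue squares). Dashed lines mark 2-fold; 9 filled triangles lie below -1, of the open ones only Psmd5 at -1.40, and the blue squares stay between -0.35 and 0.21.

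The activators that cap the core in place of the 19S particle went both ways. Psme4, the PA200 activator of the nucleus, had a log2 signal of 9.20 on the TNF KO array, 7.67 on the cFLIP KO array and 9.08 on the cFLIP KO/TNF KO array, with cFLIP KO 2.88-fold below TNF KO. Psme3, the 11S subunit of the nucleus, had 7.95, 6.79 and 7.92, 2.23-fold lower. For both genes the cFLIP KO array was far below the others, and both stayed below 0 after the lowess trend, at -0.84 and -0.64.

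Psme1 and Psme2 form the other 11S cap, which interferon-gamma induces and which is known for shaping peptides for MHC class I. Psme2 had a log2 signal of 6.07 on the TNF KO array, 7.01 on the cFLIP KO array and 6.21 on the cFLIP KO/TNF KO array. It was the one member above the median signal that was higher in cFLIP KO as deposited. The step was 1.91-fold against TNF KO and 1.74-fold against cFLIP KO/TNF KO. Psme1, its partner in the same ring, had 9.01, 9.01 and 9.22. Its equal value in TNF KO and cFLIP KO is not read as a difference of 0. After the lowess trend, cFLIP KO minus TNF KO was 0.72 for Psme1 and 1.23 for Psme2, so the sign was shared and the size was not.

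The immunoproteasome genes, which the rule left out, encode the beta subunits that replace the catalytic ones under interferon. As deposited they were highest in cFLIP KO/TNF KO, but Psmb9 and Psmb10 were higher in cFLIP KO after scaling by Actb (by 0.49 and 0.067), after the lowess trend (by 0.23 and 0.011) and after the repeated normalization (by 0.36 and 0.14), and Psmb9 also by the reference genes (by 0.37). Psmb8 had a log2 signal of 7.37 on the TNF KO array, 7.65 on the cFLIP KO array and 8.45 on the cFLIP KO/TNF KO array. Psmb10 had 6.79, 7.09 and 7.58, and Psmb9 had 5.80, 6.49 and 6.57. Their median was 0.30 in cFLIP KO minus TNF KO (0.82 after the lowess trend) and 0.79 in cFLIP KO/TNF KO minus TNF KO, where the 40 members had a median of -0.00. Beside these genes, the 9 genes of MHC class I peptide loading stood at medians of -0.29, which turned to 0.31 after the trend, and 0.50 in these comparisons, and Tapbp, which holds the loading complex together, had 7.996, 8.42 and 9.20. Erap1, which trims peptides, had 7.03, 6.01 and 7.65, and the peptide transporter Tap1 had 7.95, 7.65 and 8.80.

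The 2 genes that share only the symbol were the partner genes. Psme3ip1 had a log2 signal of 7.78 on the TNF KO array, 7.01 on the cFLIP KO array and 7.72 on the cFLIP KO/TNF KO array. Psmc3ip, known for its role in meiotic recombination, had 4.12 on every array, below the median of all values.

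Identical values were frequent. Psma8, Psmb6, Psmd9 and Psmc3ip had exactly the same value on the 3 arrays, as did 20.1% of all genes, and 12 members and 12618 genes had exactly the same value in TNF KO and cFLIP KO/TNF KO. An equal value is therefore given as deposited and not as a difference measured to be 0.

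The 5 assembly chaperones of the 20S core stood at a median of -0.11 in cFLIP KO minus TNF KO. Pomp, which matures the beta rings, had a log2 signal of 9.02 on the TNF KO array, 7.99 on the cFLIP KO array and 8.63 on the cFLIP KO/TNF KO array and was the only one at least 2-fold lower. Psmg3, another of these chaperones, had 5.11, 5.74 and 5.11 and was higher in cFLIP KO.

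Genes of proteins bound to the proteasome were among the lowest. The 8 measured of 10 associated factors had a median log2 difference of -1.16 in cFLIP KO minus TNF KO and of -0.12 in cFLIP KO/TNF KO minus TNF KO, and 5 of 8 were past 2-fold lower in the former, against the 9.15% of all genes and 39.1% of the brightest. Uchl5, a deubiquitinase of the 19S particle, had a log2 signal of 8.74 on the TNF KO array, 7.05 on the cFLIP KO array and 8.49 on the cFLIP KO/TNF KO array. Usp14, the other such deubiquitinase, had 7.68, 6.47 and 7.52. Ecpas, a scaffold that binds the 26S proteasome, had 8.23, 6.51 and 8.04. Each was low on the cFLIP KO array and slightly below TNF KO in cFLIP KO/TNF KO. Ube3c, a ubiquitin ligase on the proteasome, had 8.21, 6.63 and 8.08, and Txnl1, a thioredoxin-like protein of the 19S particle, had 9.02, 7.92 and 9.10. Sem1, the smallest 19S subunit and the only one without a Psm symbol among those measured, had 10.54, 10.38 and 10.54. After the lowess trend the median of this list was -0.59, with 3 of 8 at least 2-fold lower.

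Upstream of the proteasome, Uba6, a ubiquitin-activating enzyme and the only one measured of 6 ubiquitin and activating-enzyme genes listed, had a log2 signal of 7.48 on the TNF KO array, 6.05 on the cFLIP KO array and 7.17 on the cFLIP KO/TNF KO array. The 10 measured genes of shuttle factors and of the p97 segregase stood at a median of -0.99 in cFLIP KO minus TNF KO and of -0.08 in cFLIP KO/TNF KO minus TNF KO. Past 2-fold lower in the former were 5 of 10, against 9.15% of all genes and 39.1% of the brightest. The lowest was Ubqln1, a shuttle factor that carries ubiquitinated proteins to the proteasome, with 9.87, 7.91 and 9.62. Vcp, which encodes p97, had 8.99, 7.96 and 8.72, and its cofactors Nploc4, Faf1 and Faf2 had 9.79, 8.39 and 9.65, then 7.79, 6.33 and 7.69, then 8.66, 7.18 and 8.66. In all 5 genes cFLIP KO lay at least 2-fold below TNF KO. After the lowess trend the median of the list was -0.30.

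Of the transcription factors and helpers known to control proteasome genes, 11 of 12 were measured, with a median log2 difference of -0.18 in cFLIP KO minus TNF KO. Nfe2l1, the factor that raises proteasome transcription when proteasome activity falls, had a log2 signal of 9.14 on the TNF KO array, 7.83 on the cFLIP KO array and 9.14 on the cFLIP KO/TNF KO array. Its relative Nfe2l2 differed by -0.68 in cFLIP KO. Nfyb, a subunit of the CCAAT-binding factor, had 5.98, 4.76 and 6.42, and Stat3 had 10.11, 9.12 and 10.39. In Nfe2l1 and Nfyb cFLIP KO lay at least 2-fold below TNF KO, and in Stat3 only against cFLIP KO/TNF KO, at -1.27. After the lowess trend the list's median in cFLIP KO minus TNF KO turned to 0.05, with 4 of 11 below 0. Nfe2l2 then stood at 0.05, Nfe2l1 at -0.63, Nfyb at -1.24 and Stat3 at -0.24.

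Other large complexes were set beside the proteasome. The COP9 signalosome, which resembles the 19S lid in its build, had a median log2 difference of -0.94 in cFLIP KO minus TNF KO over 10 genes, with 5 of 10 at least 2-fold lower and 1 higher. The 11 measured genes of eIF3, a translation factor that shares these kinds of subunits, had -0.78 with 5 of 11 lower, and the 8 genes of the CCT chaperonin, which folds actin and tubulin, had -0.79 with 2 of 8 lower. The 19S particle at -0.92 with 6 of 17 lower lay among these complexes, and the 20S core at -0.26, or -0.47 without its dim genes, with none lower lay above all 3. After the lowess trend the medians were -0.32 for COP9, -0.04 for eIF3, -0.04 for CCT, -0.17 for the 19S genes and 0.17 for the 20S genes, in which the core was again the highest. The share at least 2-fold lower was 9.15% over all genes and 39.1% in the brightest group, and after the trend none of the COP9, eIF3, CCT or 19S genes was at least 2-fold lower.

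Single genes of these complexes reached as far as the 19S genes. Cops2 had a log2 signal of 9.33 on the TNF KO array, 7.67 on the cFLIP KO array and 9.19 on the cFLIP KO/TNF KO array, and Gps1, the one COP9 gene that was higher in cFLIP KO, had 7.77, 9.17 and 7.80. Eif3l had 9.52, 7.95 and 9.37, and Tcp1 of the chaperonin had 10.29, 9.21 and 10.16. The other genes of these complexes that passed 2-fold in cFLIP KO minus TNF KO were Cops4 (-1.33), Cops5 (-1.08), Cops6 (-1.30), Cops9 (-1.002), Eif3d (-1.23), Eif3e (-1.32), Eif3f (-1.35), Eif3h (-1.19) and Cct4 (-1.05). By contrast, the 61 cytosolic ribosomal protein genes had a median difference of 0.00, with 3 lower and 6 higher by at least 2-fold, but 20 of 61 were below the median signal. The furthest of these were Rps15 at -3.22 and Rpl7 at 2.42. The 76 respiratory chain genes had -0.30, which turned to 0.05 after the lowess trend. Of these 76 genes 8 were at least 2-fold lower, against 9.15% of all genes, with Ndufs8 and Ndufb5 the furthest, at -1.54 and -1.51.

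The cell markers on the same arrays moved with the genotypes as well. The summed linear signal of the 8 keratinocyte markers was 49741 on the TNF KO array, 31399 on the cFLIP KO array and 47331 on the cFLIP KO/TNF KO array, and in cFLIP KO minus TNF KO all 8 were below 0 with a median of -0.58, which was 0.16 after the lowess trend, and with Krt1 the lowest at -1.49. That of the 10 neutrophil markers was 1645, 4734 and 2558, with Ly6g, Elane and Ltf below the median signal on every array. In cFLIP KO minus TNF KO 4 of 10 were at least 2-fold higher, against 3.88% of all genes. That of the 7 measured macrophage markers was 778, 1451 and 1687, and that of the 6 Langerhans cell markers was 3712, 3065 and 5992. Thus cFLIP KO epidermis, in which the proteasome genes were lower, also had the lowest summed signal of keratinocyte markers and the highest of neutrophil markers. The neutrophil sum rests most on its brightest genes, S100a8 and S100a9, with log2 signals of 10.99 and 10.75 in cFLIP KO. Of the 10 neutrophil markers 9 were above 0 in cFLIP KO minus TNF KO, and Ly6g had 2.79 on every array.

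The 6 measured T cell markers summed to 273, 133 and 265, with Cd3d, Cd4, Cd8a and Trac below the median signal on every array. The sum rests most on Cd3g, with 7.44, 5.48 and 7.41. The list's median in cFLIP KO minus TNF KO was 0.00, with 2 below 0, 1 above and 3 equal, and -0.21 after the lowess trend. The 7 fibroblast markers summed to 6700, 7698 and 8269, and none of these was below the median signal on every array. Their median in cFLIP KO minus TNF KO was -0.30, with 4 below 0 and 3 above, and 0.38 after the lowess trend. The endothelial markers, with Tek and Emcn below the median signal, had a median of 0.20 in cFLIP KO minus TNF KO, and the melanocyte markers, with Tyr below it, had 0.00. The part of these markers in the proteasome values was not tested.

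The sequence before the start of transcription was read for the 33 of 40 members in the RefSeq promoter table (mouse build GRCm38.p6), at the first start listed for each gene. Not in the table were Psma8, Psmb1, Psmb2, Psmb7, Psmc3, Psmd3 and Psmd7. The window held 250 bases before and 50 after the start, and 3 sets of letters were searched on both strands, chosen after the values were seen. These were TGACNNNGC, the core of the antioxidant response element that Nfe2l1 and Nfe2l2 bind, CCAAT, and the core of the interferon-stimulated response element, which is GAAA and a second GAAA with any 2 bases between them. None of the 3 contains another.

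TGACNNNGC was found in 5 of 33 members, or 15.2%, against 12.5% of 27025 promoters. The 5 were Psmb6, Psmc6, Psmd12, Psmd9 and Psme4, whose differences in cFLIP KO minus TNF KO included 2 of exactly 0 (Psmb6 and Psmd9) and 3 past 2-fold lower. Their median was -1.01 and that of the other 28 was -0.62. CCAAT was found in 13 of 33 members, or 39.4%, against 37.9% of promoters, with a median difference of -0.59 where it was found and -0.78 where it was not. The interferon-stimulated element was found in 3 of 33, Psmd4, Psmd9 and Psme1, or 9.09%, against 3.49% of promoters, with a median difference of 0.00 where it was found and -0.78 where it was not. A match of letters describes the window only and is no measured binding site.

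Printed below are the 150 bases before the start, 5′ to 3′ on the strand of the gene, of members at the ends of the range. Psmb6, Psmd9 and Psme4 hold TGACNNNGC near the start and differ widely in value, Psmd11 and Psmd5 were the lowest 19S gene and the lowest member and do not hold it in the window searched, and Psme2 was the member that was higher. Capitals mark TGACNNNGC on either strand. In Psme4 it lies on the opposite strand and runs past the printed bases, and the single capital that opens the Psmd9 stretch is the last base of a match of the interferon-stimulated element. The positions are Psmb6 chr11:70525207-70525356 (plus strand), Psmd9 chr5:123228040-123228189 (plus strand), Psme4 chr11:30771625-30771774 (plus strand), Psmd11 chr11:80428465-80428614 (plus strand), Psmd5 chr2:34870963-34871112 (minus strand) and Psme2 chr14:55591102-55591251 (minus strand), all in GRCm38.p6.
Psmb6: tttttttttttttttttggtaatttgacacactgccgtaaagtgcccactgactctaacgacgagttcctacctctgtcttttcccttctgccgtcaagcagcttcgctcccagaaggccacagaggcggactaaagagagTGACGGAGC
Psmd9: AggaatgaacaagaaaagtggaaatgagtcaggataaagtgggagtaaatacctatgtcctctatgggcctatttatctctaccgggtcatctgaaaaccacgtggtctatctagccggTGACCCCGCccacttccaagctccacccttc
Psme4: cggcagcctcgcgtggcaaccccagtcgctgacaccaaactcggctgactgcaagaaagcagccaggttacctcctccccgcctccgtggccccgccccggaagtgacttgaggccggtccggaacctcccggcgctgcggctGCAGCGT
Psmd11: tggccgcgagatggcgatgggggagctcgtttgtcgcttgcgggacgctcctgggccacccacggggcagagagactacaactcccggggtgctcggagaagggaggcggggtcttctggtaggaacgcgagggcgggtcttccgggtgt
Psmd5: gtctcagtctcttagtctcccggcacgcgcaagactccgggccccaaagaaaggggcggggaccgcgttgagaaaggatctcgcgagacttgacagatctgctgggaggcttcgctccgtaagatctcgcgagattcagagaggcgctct
Psme2: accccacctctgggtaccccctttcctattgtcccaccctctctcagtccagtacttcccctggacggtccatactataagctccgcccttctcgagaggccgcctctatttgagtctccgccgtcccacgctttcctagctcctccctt

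Of the 3 with the match, Psmb6 and Psmd9 had the same signal on every array and for Psme4 cFLIP KO was 2.88-fold below TNF KO. The 2 lowest without it, Psmd5 and Psmd11, were 3.44-fold and 2.98-fold lower.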

How the data were processed

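Epidermal RNA of 3 mouse genotypes was measured on Affymetrix Mouse Gene ST arrays, 1 per genotype. The values that the authors deposited are log2 signals by ENTREZ gene, from a custom chip definition, after background correction by robust multiarray analysis (RMA in the submitters' processing notes, with no version in the sources used here) and quantile normalization. Groups were taken from the genotype label, since 1 sample's title departs from its genotype, source and description. The study's methods give ranges for the animals pooled and the days of tamoxifen, and the labels' values are the ones printed. The number of arrays limits the precision.

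Symbols were looked up by ENTREZ identifier in the platform annotation. Of 24973 rows, 958 had no symbol and were left out, and 24015 gave 24011 genes. Differences of log2 values were taken per gene between arrays and set beside those of all genes. Dim genes were those below the median of all values, 4.23, on every array, and none were left out unless stated. The study's analysis of variance was left out, since no residual error can be had from 1 array per genotype.

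Alternatives were thresholds of 1.5-fold and 3-fold, scaling by Actb or by reference genes (7 of 10 measured), subtraction of a lowess trend (0.3 of genes, 3 iterations), quantile normalization applied again, the mean in place of the median, a floor at the 25th percentile, leaving out dim genes, and leaving out Psma8, Psmb11, the 19S chaperones and the partner genes. The 19S minus 20S contrast and the 10 signal groups were added after the data were seen. The steps were tested on simulated data. The members, lists and rule for naming were chosen with earlier results of these data known. The rule named every 19S or 20S gene past 2-fold, the 3 highest and 3 lowest of each role list, the catalytic, immunoproteasome and activator genes, and in other lists the 2 furthest from 0 and those past 2-fold. Other members were named to account for all of them, and of the reference, ribosomal, respiratory and marker lists only some. The tools were statsmodels 0.14.6, numpy 2.4.6, pandas 2.3.3 and matplotlib 3.10.9 under Python 3.11.15.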

Additional observations from a re-analysis of the deposited data

How the results depend on the processing

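No paired analysis was possible because each genotype had 1 array and no test was run. Scaling by Actb moved every difference of cFLIP KO/TNF KO from TNF KO by -0.52 and every one of cFLIP KO from cFLIP KO/TNF KO by 0.56, and scaling by the reference genes moved the 3 comparisons by 0.32, -0.12 and 0.45. In cFLIP KO minus TNF KO the median of all members, -0.62, became -0.30 by the reference genes, -0.14 by the lowess trend, -0.083 by the repeated quantile normalization, -0.75 without dim genes and -0.74 without the tissue-restricted genes, chaperones and partners. The 9 members at least 2-fold lower became 3, 1 and 1 under the first 3 of these, 22 at 1.5-fold and 1 at 3-fold, and the 0 at least 2-fold higher became 1 under each of the first 3 and 2 at 1.5-fold. The core's median, -0.26, turned to 0.060, 0.17 and 0.22 by the reference genes, the trend and the repeated normalization, and was -0.47 without dim genes and -0.41 without the tissue-restricted genes, and the 19S median, -0.92, became -0.59, -0.17 and -0.19. In cFLIP KO/TNF KO minus TNF KO, scaling by Actb gave -0.53 for all members, -0.52 for the core and -0.55 for the 19S genes, and the reference genes gave -0.13, -0.12 and -0.15. In cFLIP KO minus cFLIP KO/TNF KO, Actb, the reference genes, the trend and the repeated normalization, in this order, turned the members' median of -0.62 into -0.061, -0.18, -0.094 and -0.068, the 6 lower members into 1, 2, 1 and 1, the 0 higher ones into 2, 2, 1 and 1, the core's median of -0.28 into 0.28, 0.17, 0.14 and 0.15, and the 19S median of -0.79 into -0.22, -0.34, -0.12 and -0.12. There, 22 members were lower and 2 higher at 1.5-fold and 0 lower at 3-fold, and the core's median was -0.47 without dim genes and -0.41 without the tissue-restricted genes. The causes of these shifts were not tested beyond the construction of the scalings. Of the members and immunoproteasome genes, none that was past 2-fold turned its direction. Of those short of 2-fold, Psma3, Psma4, Psma6, Psma7, Psmb1, Psmb2, Psmb4, Psmc1, Psmc3, Psmc4, Psmd4 and Psmd6 turned from lower to higher and Psma5 from higher to lower in cFLIP KO minus TNF KO after the lowess trend. The same genes turned in the same way in cFLIP KO minus cFLIP KO/TNF KO after this trend. There, Psmb7 (to 0.057), Psme1 (to 0.47), Psmb9 and Psmb10 also turned from lower to higher. Psmb9 and Psmb10 turned under other settings too, as given with their values. Each shift by Actb or the reference genes also turned every difference of opposite sign and smaller size. By Actb, for example, Psma4 (-0.47), Psmc3 (-0.43) and Psme1 (-0.21) turned from lower to higher in cFLIP KO minus cFLIP KO/TNF KO. Psme1 (0.21) and Psme2 (0.13) turned from higher to lower in cFLIP KO/TNF KO minus TNF KO. Turns of members under the repeated normalization are not listed. Of the all-member, core and 19S values, the other medians moved by less than 0.1 and the other counts kept within 1.5-fold. Of the other lists, the genes at least 2-fold lower in cFLIP KO minus TNF KO after the trend went from 5 to 2 for the shuttle factors and from 8 to 0 for the respiratory chain.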
